A study of Mus musculus with 6 samples.

Results

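The red cell membrane skeleton genes are 9 genes chosen by name, and all 9 were found among the 48709 genes of the count table. They are Sptb, Ank1, Slc4a1, Epb41, Epb42, Add1, Add2, Dmtn and Tmod1, which encode β-spectrin, ankyrin, band 3, protein 4.1, protein 4.2, α-adducin, β-adducin, dematin and tropomodulin. The rule names them by their place in the membrane skeleton and sets no threshold on a measured value, although earlier results of these data were known when it was written. The RNA came from mouse G1E-ER4 cells, a clonal erythroid progenitor line that derives from embryonic stem cells lacking GATA1 and carries GATA1 fused to the ligand-binding domain of the estrogen receptor, so that tamoxifen brings GATA1 into the nucleus and starts red cell differentiation. The comparison asks how gene expression in these differentiating cells changes with a peptide that copies an aggregation-prone stretch of the C-terminus of CHD4, the remodeling enzyme of the NuRD and ChAHP complexes. There were 3 CHD4-APR libraries, from cells given this stretch joined to the Tat sequence, and 3 CTRL libraries, from cells given a run of alanines joined to the same Tat sequence. Both peptides were added at 10 μM, and tamoxifen was added 2 h later for another 28 h in all 6 samples. Tamoxifen was at 100 nM by the growth protocol and 100 μM by the series design. Cells without tamoxifen were not analysed here, so the rise of these genes on differentiation itself was not measured.

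The membrane skeleton is a protein net under the red cell membrane, in which long spectrin rods meet at junctions of short actin filaments. Ankyrin ties the net to band 3 with the help of protein 4.2, while protein 4.1, the adducins and dematin hold the junctions together and tropomodulin caps the actin filaments at their pointed ends. Most of these genes are switched on as erythroblasts mature, several of them by GATA1 and KLF1, and inherited defects in the genes of spectrin, ankyrin, band 3, protein 4.1 and protein 4.2 cause hereditary spherocytosis or elliptocytosis.

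The libraries held between 41687482 and 49784177 counts, and 12722 genes had enough counts to be tested. The erythroid identity given by the labels was checked on 10 marker genes, all of which were detected and whose summed level was between 63853 and 69531 CPM (counts relative to library size, scaled by the TMM method of edgeR) in CTRL libraries and between 53035 and 56995 in CHD4-APR libraries. Kit, the receptor of early progenitors, was low, at 2.72 ± 0.283 CPM (SD, n = 3) with the CTRL peptide. Among megakaryocyte markers Ppbp was at 0 in every library, and the sum of the 4 genes was 46.7 to 48.8 CPM in CTRL and 39.9 to 45.7 in CHD4-APR libraries. The sums of 5 myeloid, 3 mast cell and basophil and 3 lymphoid markers were at most 4.72, 0.797 and 0.604 CPM in any library, with Mpo and Cd3e at 0 in all, and the embryonic stem cell markers Pou5f1 and Nanog were at 0 throughout. Hemoglobin genes took 6.04 to 6.45% of the counts in CTRL libraries and 5.11 to 5.44% in CHD4-APR libraries, and Klf1 was lower with the CHD4-APR peptide (log2 fold change -0.17, FDR 0.0150 by edgeR). With the hemoglobin genes left out of the table, the log2 fold changes of Epb42, Add2 and Dmtn, the members that changed, were 0.34, -0.18 and -0.18, as with them. The part of the other marker genes in the results below was not tested. In bulk RNA, fewer cells of a kind and less RNA per cell cannot be told apart. The labels do not say whether the 3 libraries of a group came from separate cultures, so p-values measure the spread between these libraries, which may be technical.

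The skeleton genes were among the well-expressed genes of these cells, with 1 exception. Levels of different genes were compared as RPKM, CPM per kilobase of exon, because the exons of the 9 genes span from 3946 bases in Tmod1 to 15942 bases in Epb41. Slc4a1, whose product band 3 exchanges chloride for bicarbonate and is the main anchor of the skeleton, was by far the highest, with 1150 ± 28.1 RPKM (SD, n = 3) under the CTRL peptide, and under the CHD4-APR peptide it had 1191 ± 14.7 RPKM (SD, n = 3). Sptb followed with 153 ± 2.18 RPKM and Ank1 with 125 ± 2.42 (SD, n = 3, CTRL libraries). Below them came Add1, Add2, Epb41, Tmod1 and Dmtn, with means of 91.1, 74.4, 71.8, 67.1 and 54.5 RPKM. Epb42 stood apart at 4.22 ± 0.295 RPKM (SD, n = 3) with the CTRL peptide, below the median of all genes tested in CTRL libraries, 5.01 RPKM. With the CHD4-APR peptide it had 5.34 ± 0.0635 RPKM (SD, n = 3), which is above that CTRL median. The highest gene exceeded the lowest by 273-fold with the CTRL peptide. In CTRL libraries the ranges of no neighbours in this order overlapped, although Add2 and Epb41 were only 1.04-fold apart. In CHD4-APR libraries Add2 moved from the fifth to the seventh place, behind Epb41 and Tmod1. Exon length was taken as the union of all annotated exons, which understates the level of genes with many unused exons. The order of the genes between Slc4a1 and Epb42 therefore depends on the length used, which the spread between libraries does not show. Ank1, for example, has 13527 bases of exons but a longest transcript of 8366, against 12147 and 10394 for Sptb.

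**Figure D1:**
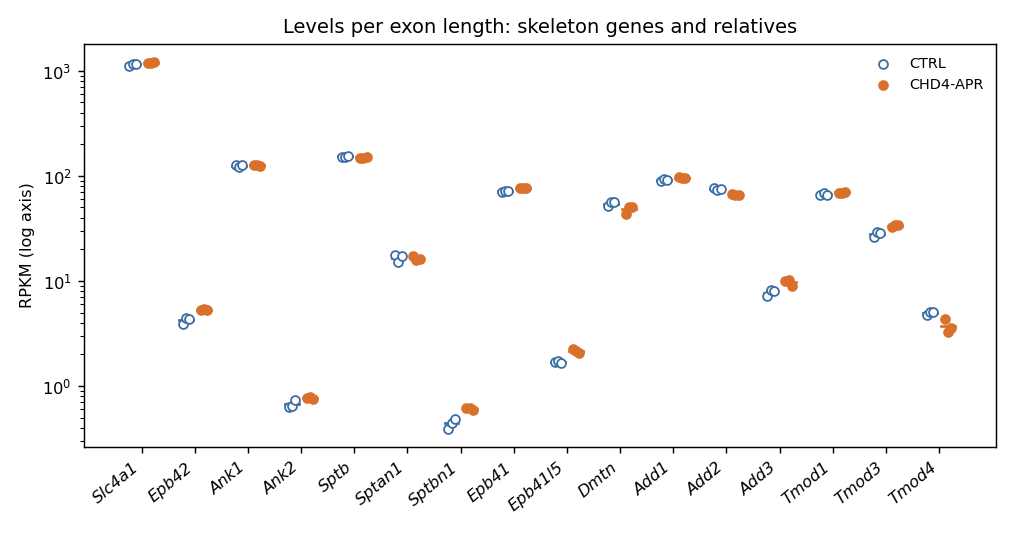
The plot shows RPKM on a log axis for membrane skeleton genes and their relatives, 1 point per library and a line at each group mean, with CTRL libraries open and CHD4-APR libraries filled. Slc4a1 lies near 1150 RPKM and Epb42 near 4.22, and the relatives of each family, such as Ank2 beside Ank1 and Add3 beside Add1, lie below the red cell gene. The distance of Tmod3 below Tmod1 depends on the exon length used.

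Between the peptides, 3 of the 9 skeleton genes changed. Epb42 rose and Add2 and Dmtn fell, by edgeR's quasi-likelihood test with Benjamini-Hochberg adjustment over all genes tested (FDR under 0.05). Of all genes tested, 38.3% passed in either direction, 20.4% as higher and 17.8% as lower, so the 33.3% of the skeleton genes was close to the background. The median log2 fold change of the 9 genes was 0.051, against -0.012 for all genes tested, and their median absolute log2 fold change was 0.074, against 0.18. All 9 log2 fold changes lay between -0.18 and 0.34. The CHD4-APR and CTRL libraries did not overlap for 8 of the 9 genes, where 49.9% of all genes tested had no overlap. Of these 8 genes, 5 did not pass the test.

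**Figure D2:**
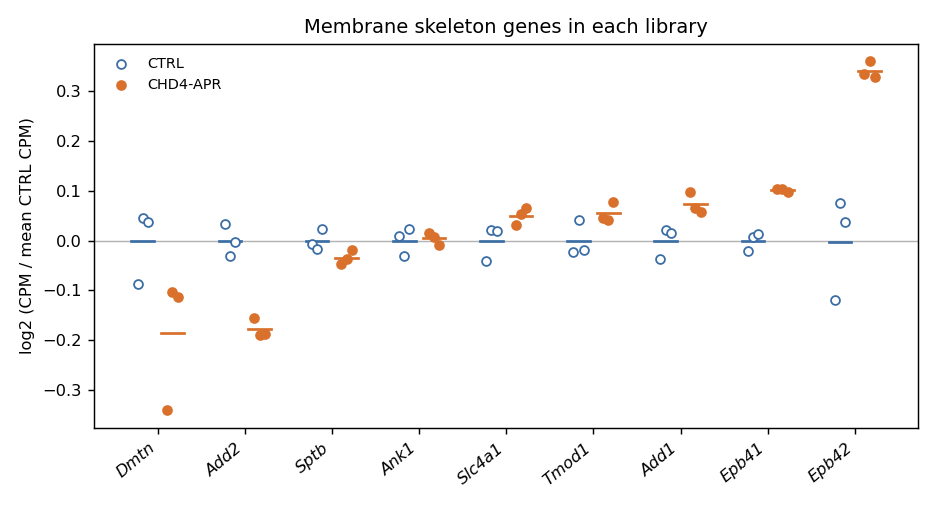
The plot shows, for each of the 9 genes, the log2 ratio of CPM in each library to the mean of the CTRL libraries, with a line at each group mean. Epb42 lies above and Add2 and Dmtn below the CTRL libraries, Dmtn is lowest in CHD4-APR replicate 1, and Ank1 is the gene whose groups overlap.

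Epb42 encodes protein 4.2, a relative of the transglutaminases that has no enzyme activity and binds both band 3 and ankyrin. The gene lies on chromosome 2 from 121017891 to 121037072, on the minus strand (GRCm38, as are all positions given here). It had 21.04, 24.1 and 23.4 CPM in CTRL replicates 1, 2 and 3, and 28.8, 29.3 and 28.7 CPM in the CHD4-APR replicates. Every CHD4-APR library was above every CTRL library, and the CHD4-APR libraries lay within 1 CPM of each other. The log2 fold change of 0.34 had a standard error of 0.065 and an FDR of 6.46e-04 in the edgeR fit, a rise of 26.5%. This was the largest change among the 9 genes, and 21.9% of all genes tested had a larger absolute change. It kept its direction and an FDR of at most 0.00640 under all 18 alternatives, with log2 fold changes between 0.23 and 0.38. Counts of Epb42 were 891 to 1354 per library, so that it was the gene with the lowest depth. Over the 6 libraries, the pattern of log2 CPM nearest to that of Epb42 was found in Bzw1, Xpr1 and Luc7l2, whose values differed from it by a root mean square of 0.013, 0.013 and 0.017 on the log2 scale after each gene was centred on its mean.

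Add2 and Add1 encode β- and α-adducin, which pair with each other to cap the barbed ends of the actin filaments and recruit spectrin to them. Add2, on chromosome 6 from 86028681 to 86124409, had 772, 738 and 753 CPM in CTRL replicates 1, 2 and 3 and 677, 661 and 663 CPM in the CHD4-APR replicates. All CHD4-APR libraries were below all CTRL libraries. It fell with a log2 fold change of -0.18, a standard error of 0.041 and an FDR of 0.00253 in the edgeR fit, and it passed under all 18 alternatives, with an FDR of at most 0.0255 and values between -0.32 and -0.16. Add1, on chromosome 5 from 34573664 to 34632308, had 760, 792 and 789 CPM with the CTRL peptide and 835, 816 and 812 with the CHD4-APR peptide. The groups did not overlap, but its log2 fold change of 0.074 did not pass (95% interval -0.012 to 0.16, FDR 0.170 by edgeR's quasi-likelihood test). Add3, the γ-adducin gene of most other tissues, was much lower than either, with 7.75 RPKM in CTRL and 9.75 RPKM in CHD4-APR libraries, and rose (log2 fold change 0.33, standard error 0.064, FDR 6.99e-04 by edgeR). It also passed under all alternatives, with values between 0.16 and 0.40.

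The adducin genes could be compared within each library, where the scaling of libraries has no influence. The ratio of Add2 to Add1, in counts per kilobase of exon, was 0.858, 0.787 and 0.806 in CTRL replicates 1, 2 and 3 and 0.684, 0.684 and 0.689 in the CHD4-APR replicates. The ratio was lower in every CHD4-APR library, by 0.25 on the log2 scale, and the ratio of Add3 to Add1 was higher in every one, by 0.26. With exon length and GC content corrected for, the difference in Add3 to Add1 was 0.16, and 0.13 with the longest transcript. Of the 6 ratios of gene pairs compared, 5 had groups that did not overlap, each with p = 0.1 by exact permutation (two-sided), a value that no design of 3 libraries against 3 can go below, and an adjusted p of 0.12. Without any 1 library the difference in Add2 to Add1 stayed between -0.28 and -0.22.

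Dmtn encodes dematin, which bundles actin filaments and links the junctions to the membrane. The gene lies on chromosome 14 from 70601263 to 70636048. It had 503, 551 and 548 CPM in CTRL replicates 1, 2 and 3 and 422, 497 and 493 CPM in the CHD4-APR replicates. The CHD4-APR libraries were all below the CTRL libraries, but CHD4-APR replicate 2 lay just under CTRL replicate 1, and CHD4-APR replicate 1 lay well below the other libraries of its group. It fell with a log2 fold change of -0.18, a standard error of 0.058 and an FDR of 0.0215 in the edgeR fit. The call rested on single libraries. Without CHD4-APR replicate 1 the log2 fold change was -0.10 (FDR 0.145), without CTRL replicate 2 it was -0.16 (FDR 0.0587) and without CTRL replicate 3 it was -0.16 (FDR 0.0901), all by the same edgeR test.

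Promoter sequences from RefSeq (GRCm38.p6) are given for Epb42, which rose, for Add2, which fell, and for Add1, which did not pass the test and was taken because its product pairs with that of Add2. RefSeq windows were found for 6 of the 9 genes, and Slc4a1, Ank1 and Dmtn had none in the table. The 250 bases before each start were searched on both strands for a GATA motif (AGATAA or TGATAA, or either with G as the last letter) and for a CACCC motif of the kind bound by KLF1 (CCNCNCCC), and capitals mark the matches, merged where they overlap. Bases inside GENCODE exons are not shown, so that of Epb42, whose GENCODE exons cover 195 of the 250 bases, only the outermost 55 remain.
Epb42, chr2:121037073-121037127, minus strand: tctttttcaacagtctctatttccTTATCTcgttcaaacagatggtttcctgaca
Add2, chr6:86028431-86028680, plus strand: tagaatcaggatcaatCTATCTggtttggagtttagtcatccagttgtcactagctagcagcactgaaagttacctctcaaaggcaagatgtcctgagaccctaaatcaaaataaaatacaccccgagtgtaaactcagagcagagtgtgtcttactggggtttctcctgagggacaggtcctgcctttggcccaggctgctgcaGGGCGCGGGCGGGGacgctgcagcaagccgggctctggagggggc
Add1, chr5:34573414-34573663, plus strand: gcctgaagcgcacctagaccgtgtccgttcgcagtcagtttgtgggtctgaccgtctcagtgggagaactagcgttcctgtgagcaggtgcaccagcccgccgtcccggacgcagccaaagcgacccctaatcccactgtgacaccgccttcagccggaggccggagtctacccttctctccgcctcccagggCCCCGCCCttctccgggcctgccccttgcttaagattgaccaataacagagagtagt

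The windows of Epb42 and Add2 each held 1 GATA match, whose first base lay 226 and 234 bases before the RefSeq start, and that of Add1 held 0. These distances are not alike, because the RefSeq start of Epb42, at 121036877, lies inside the GENCODE gene, which starts at 121037072 on the minus strand. The Epb42 match is thus nearer to the GENCODE start, while both starts of Add2 are at 86028681. Among all 32851 RefSeq windows of this length, 26.5% held a GATA match and 45.9% a CACCC match. Add2 had 2 CACCC matches, which overlapped, Add1 had 1 and Epb42 had 0. GC content was 43.2% in the window of Epb42, 53.2% in that of Add2 and 62.4% in that of Add1. The gene that rose and a gene that fell thus shared the GATA letters, and the matches are a description of the sequence only.

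Band 3 and ankyrin form the anchor of the spectrin net together with protein 4.2, and unlike Epb42 their genes did not pass the test. Slc4a1, on chromosome 11 from 102348824 to 102366203, had 5466, 5707 and 5701 CPM in CTRL replicates 1, 2 and 3 and 5747, 5839 and 5889 CPM in the CHD4-APR replicates. The groups did not overlap, yet the log2 fold change was only 0.051 (95% interval -0.038 to 0.14, FDR 0.371 by edgeR's quasi-likelihood test). Ank1, on chromosome 8 from 22974844 to 23150497, had 1707, 1660 and 1724 CPM with the CTRL peptide and 1716, 1705 and 1688 with the CHD4-APR peptide. Its libraries overlapped fully, and its log2 fold change of 0.0050 (95% interval -0.080 to 0.090, FDR 0.936 by the same edgeR test) was the smallest of the 9. The ratio of Slc4a1 to Ank1 was 8.86 to 9.51 in CTRL and 9.27 to 9.65 in CHD4-APR libraries, ranges that overlapped (p = 0.3, exact permutation test). The log2 difference in this ratio was 0.046, and 0.17 after the length and GC correction described with Epb41, under which Slc4a1 passed as higher. The log2 ratio of Epb42 to Slc4a1 was higher with the CHD4-APR peptide in every library, by 0.29, and by 0.13 after that correction.

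Sptb, on chromosome 12 from 76580488 to 76710547, encodes the β chain of spectrin, the rod that spans the net and carries the binding site for ankyrin. It had 1852, 1840 and 1891 CPM in CTRL replicates 1, 2 and 3 and 1802, 1813 and 1837 CPM in the CHD4-APR replicates. The groups were just apart, and the log2 fold change of -0.034 did not pass (95% interval -0.12 to 0.050, FDR 0.537 by edgeR's quasi-likelihood test). Of all genes tested, 89.98% had a larger absolute change. Sptb passed as lower under 1 of the alternatives, the length and GC correction with the longest transcript (-0.12, FDR 0.0193 by edgeR).

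Epb41, on chromosome 4 from 131923413 to 132075321, encodes protein 4.1, which binds spectrin and actin together at the junctions and holds them to glycophorin C. It had 1129, 1151 and 1155 CPM in CTRL replicates 1, 2 and 3 and 1231, 1230 and 1225 CPM in the CHD4-APR replicates. The groups were clearly apart, and the SD within the CHD4-APR group was 3.19 CPM. The log2 fold change of 0.10 lay at the threshold (95% interval 0.018 to 0.19, FDR 0.0520 by edgeR's quasi-likelihood test). It passed with DESeq2 (FDR 0.0233), with limma-voom (FDR 0.0347) and under 3 other alternatives. Its direction turned, however, when a per-library trend with exon length and GC content was removed (the length and GC correction), to a log2 fold change of -0.28 with an FDR of 9.92e-05 by edgeR. Epb41 has longer exons than 98.4% of the genes tested and a GC content of 42.3%, higher than in only 14.4% of them. With the longest transcript in place of all exons the value was -0.30, so the direction of Epb41 depended on this step.

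**Figure D3:**
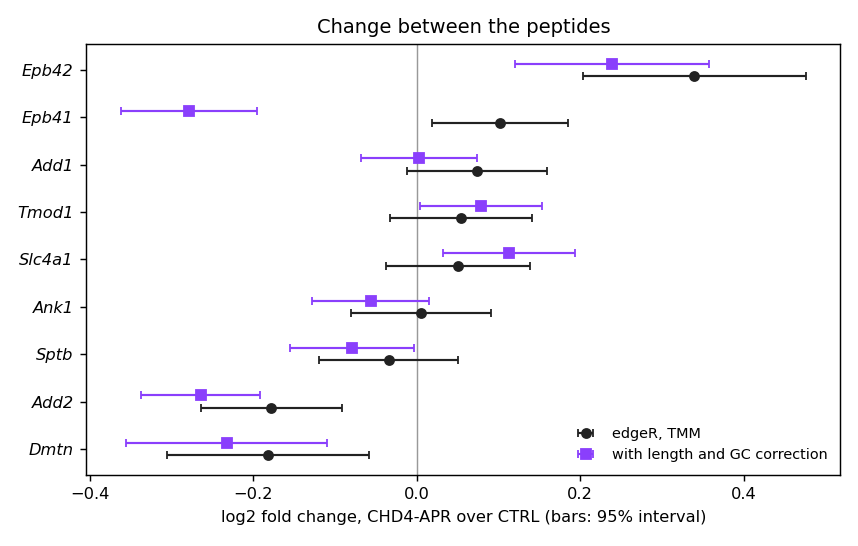
The plot shows the log2 fold change of each of the 9 genes with its 95% interval, from the edgeR fit (circles) and after the length and GC correction (squares). Epb42, Add2 and Dmtn keep their side of 0 in both, and Epb41 moves from 0.10 to -0.28.

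The same correction left the calls of Epb42 (log2 fold change 0.24, FDR 0.00465), Add2 (-0.26, FDR 5.12e-05) and Dmtn (-0.23, FDR 0.00699) in place by edgeR. Slc4a1 passed as higher after it (0.11, FDR 0.0356), so that 2 genes were higher and 3 lower. Over all genes it moved the share of higher calls from 53.4% to 42.04%. The difference in the ratio of Add2 to Add1, genes of similar exon length and GC content, was -0.27 after the correction, whereas that of Tmod1 to Tmod3 turned from -0.20 to 0.19 and that of Epb41 to Dmtn from 0.29 to -0.046.

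Tmod1, on chromosome 4 from 46038935 to 46116032, encodes the tropomodulin of red cells. It had 261, 273 and 261 CPM in CTRL replicates 1, 2 and 3 and 273, 273 and 280 CPM in the CHD4-APR replicates. The groups were apart only in the decimals, since CTRL replicate 2 and CHD4-APR replicate 2 both stood at 273 CPM. Its log2 fold change of 0.055 did not pass (95% interval -0.032 to 0.14, FDR 0.320 by edgeR's quasi-likelihood test). Tmod3, the tropomodulin of most cells, was at 28.1 RPKM against 67.1 for Tmod1 in CTRL libraries. This gap depended on exon length, since the exons of Tmod3 span 11151 bases and its longest transcript 3918. For Tmod1 the lengths are 3946 and 3158 bases. In CPM, which takes no account of length, Tmod3 was above Tmod1 in CTRL libraries, with means of 313 and 265. Tmod3 rose from 313 ± 17.5 to 374 ± 7.16 CPM (SD, n = 3). Its log2 fold change was 0.26 (FDR 4.01e-04 by edgeR), but -0.11 (FDR 0.0263) after the length and GC correction and 0.0062 (FDR 0.921) when that correction used the longest transcript.

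**Figure D4:**
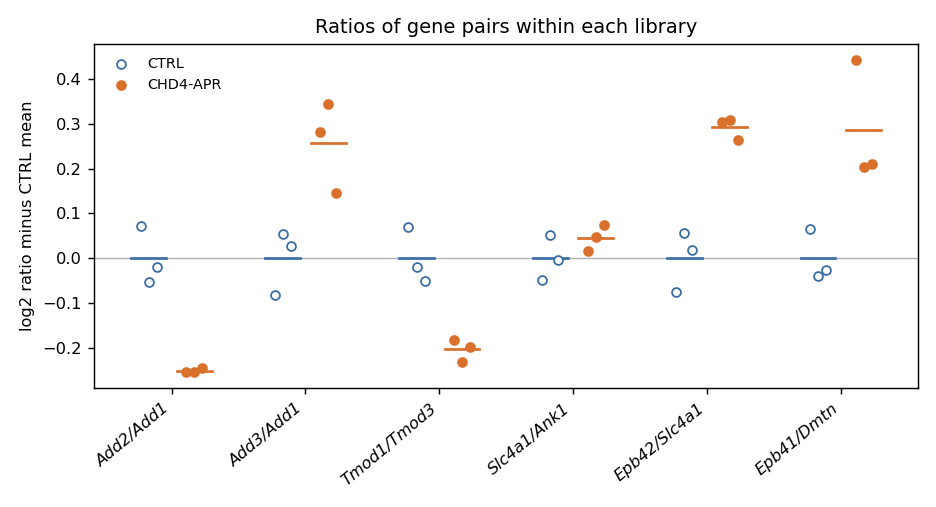
The plot shows the log2 ratio of 6 gene pairs in each library, in counts per kilobase of exon, minus the mean of the CTRL libraries. The groups do not overlap for 5 pairs, with Add2 to Add1 lower by 0.25 and Epb42 to Slc4a1 higher by 0.29 with the CHD4-APR peptide (0.13 after the length and GC correction, which is not drawn), and they overlap for Slc4a1 to Ank1.

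Among genes related to the 9, such as the other spectrins, ankyrins, adducins and tropomodulins, 9 changed and 7 of these rose, a direction that did not hold under the length and GC correction. The list held 23 genes, Add3 and Tmod3 included, and 10 were not tested, of which 6 had no count in any library and none exceeded 0.187 CPM. Of the 13 tested, 7 rose and 2 fell, which is 69.2% against 38.3% of all genes tested, and their median log2 fold change was 0.21, against -0.012 for all genes tested. Slc4a7, a sodium bicarbonate transporter, Sptbn1, a spectrin of most other cells, and Epb41l5, a protein 4.1 relative of epithelia, had the largest rises, with log2 fold changes of 0.87, 0.46 and 0.35 (FDR 0.00494, 0.00103 and 2.38e-04 by edgeR). These 3 genes were low, at 0.822, 7.72 and 25.0 CPM in CTRL libraries. Tmod4, the tropomodulin of skeletal muscle, fell from 8.53 ± 0.309 to 6.38 ± 0.916 CPM (SD, n = 3), with a log2 fold change of -0.42 (FDR 0.00498 by edgeR), and Sptbn4 fell with a log2 fold change of -0.26 (FDR 0.0424) that did not pass when CTRL replicate 1 or 3, or CHD4-APR replicate 2 or 3, was left out (FDR 0.0557 to 0.240). After the length and GC correction only 3 of the relatives passed, with Add3 higher (log2 fold change 0.17) and Tmod3 and Tmod4 lower (-0.11 and -0.31, neither of which passed with the longest transcript), so that the rises no longer outnumbered the falls. Slc4a7, Sptbn1 and Epb41l5 did not pass after it, with log2 fold changes of 0.50, 0.19 and -0.045 (FDR 0.1005, 0.103 and 0.622 by edgeR).

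Of 11 genes of the actin filaments and their caps, 9 were tested, 3 were higher and 1 was lower (44.4%, against 38.3% of all genes tested), with a median log2 fold change of 0.071. Actb, the β-actin of the junctions, fell from 829 ± 26.0 to 716 ± 18.5 CPM (SD, n = 3), a log2 fold change of -0.21 (FDR 9.59e-04 by edgeR). Actg1, γ-actin, rose from 79.1 ± 3.73 to 101 ± 4.51 CPM (SD, n = 3), a log2 fold change of 0.35 (FDR 5.43e-05 by edgeR). The actins thus changed in opposite directions, and each passed under all 18 alternatives, with values between -0.23 and -0.13 for Actb, the smallest with the longest-transcript correction, and between 0.32 and 0.46 for Actg1. Capza2 and Capza1, the α subunits of the capping protein, rose with log2 fold changes of 0.24 and 0.23, but neither rise held after the length and GC correction, where Capza2 passed as lower (-0.13, FDR 0.0340 by edgeR) and Capza1 did not pass (0.086, FDR 0.0703).

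Of 14 genes of membrane proteins that sit in the band 3 and junctional complexes or beside them, 13 were tested, 2 were higher and 4 were lower (46.2%, against 38.3% of all genes tested), with a median log2 fold change of -0.0031. Rhag, the Rh-associated glycoprotein of the ankyrin complex, rose most, from 48.4 ± 3.30 to 74.9 ± 2.92 CPM (SD, n = 3), a log2 fold change of 0.63 (FDR 1.12e-06 by edgeR). It passed under all 18 alternatives, with values between 0.51 and 0.67. Xk, the partner of the Kell protein, rose with a log2 fold change of 0.34 (FDR 0.00141), which was 0.15 (FDR 0.172) after the length and GC correction. Kcnn4, the calcium-gated potassium channel of red cells, and Gypc, the glycophorin that binds protein 4.1, fell with log2 fold changes of -0.24 and -0.20 and passed under all 18 alternatives, with values between -0.28 and -0.19 for Kcnn4 and between -0.22 and -0.12 for Gypc, whose FDR reached 0.0417. Slc2a1, a glucose carrier, fell with a log2 fold change of -0.24 (FDR 0.0159) and did not pass without CTRL replicate 3 or CHD4-APR replicates 1 or 3 (FDR 0.0604 to 0.0978), nor after the length and GC correction (-0.15, FDR 0.127). It did pass when that correction was used with a replicate block (-0.16, FDR 0.0267 by edgeR), under which 9 genes of this list passed.

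The library kit does not mark strand, and reads of overlapping genes cannot be told apart. Tmod1 shares 1287 exonic bases with Tstd2 on the opposite strand, Ank1 shares 862 with the antisense gene Gm15816 and Add2 shares 356 with the antisense gene Gm44089. Epb41 shares 142 bases with Gm10300 and 91 with Gm13063, Add1 shares 63 with a microRNA gene and Sptb shares 1 with Plekhg3. Slc4a1, Epb42 and Dmtn share no exonic base with another annotated gene. Mir486, the gene of an erythroid microRNA, lies within the span of Ank1 and shares no exonic base with it.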

How the data were processed

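Poly(A) RNA was sequenced in 3 CTRL and 3 CHD4-APR libraries. The deposited values are raw counts per Ensembl gene, which the authors made with Cutadapt for trimming, STAR 2.7.10a for alignment to GRCm38 and featureCounts for counting. Settings for strand and for reads matching several genes are not given in the sources used here. Another 2 columns match no sample and were not used.

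Genes were named and measured with GENCODE M21 (GRCm38), which held 48349 of 48709 identifiers. Genes passing filterByExpr were scaled by TMM and compared by the quasi-likelihood F-test of edgeR 4.0.16 in R 4.3.3 with no block for replicate number, Benjamini-Hochberg adjustment (FDR) and a threshold of 0.05, whereas the study used DESeq2. Each standard error was derived from F and the fold change. Log2 CPM for likeness had a prior count of 2. Alternatives were DESeq2 1.42.0, limma-voom 3.58.1, RLE and upper quartile scaling, no filter, at least 10 counts in every library, hemoglobin genes left out, a replicate block, each library left out, and a length and GC correction, in which trends of log2 CPM on exon length and GC content, smoothed by mgcv 1.9.3, were passed as offsets for the 12677 genes with both. Corrections with additive terms or the longest transcript, and those of the ratios, were chosen after seeing the data. Genes named are the 9 members, genes of the ratios, up to the 3 largest changes in each direction with an FDR under 0.05 in each other list, and the 3 genes nearest in pattern to the member that changed most. Marker genes and genes overlapping a member are also given, and some genes of the lists and a ratio are not reported here. The members and lists were chosen with earlier results of these data known. The procedures were tested on simulated counts. All replicate pairs differed by more than sampling noise (chi-square per degree of freedom 4.61 to 15.5).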

Additional observations from a re-analysis of the deposited data

How the results depend on the processing

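Over 18 alternatives for each of the 9 members, 139 of the values kept their direction and their side of the threshold. Epb42, Add2 and Tmod1 did so in all, and Dmtn lost its call without 3 of the libraries. With each library left out, 1 member was higher and 1 to 2 were lower, and 3703 to 4928 genes passed. The members called higher were 2, with Epb41 added, under DESeq2, limma-voom, RLE scaling, the filter of at least 10 counts and without hemoglobin genes. They were 2, with Slc4a1 added, under the length and GC correction, alone, with the replicate block or with additive terms, and the members called lower were 4, with Epb41 and Sptb added to Add2 and Dmtn, with the longest transcript. Genes called higher over the whole table were 1476, 1671, 1490 and 1336 under the correction alone, with the block, with additive terms and with the longest transcript, which called 3139 in all, and the relatives called were 3, 5, 5 and 2.

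Under these same 4 corrections in that order, Epb41 had log2 fold changes of -0.28, -0.28, -0.27 and -0.30, Ank1 of -0.057, -0.056, -0.074 and -0.051, and Epb41l5 of -0.045, -0.045, -0.050 and -0.052. Capza2 had -0.13, -0.13, -0.10 and -0.11. Tmod3 had -0.11 in the first 3 of them and 0.0062 with the longest transcript, and Add1 had -0.0020 with additive terms. Ank1 was also -0.012 under upper quartile scaling and -0.011 to 0.018 with each library left out. In the correction alone, with additive terms and with the longest transcript, the difference in log2 ratio was 0.19, 0.19 and 0.073 for Tmod1 to Tmod3, 0.17, 0.18 and 0.13 for Slc4a1 to Ank1, 0.13, 0.13 and 0.15 for Epb42 to Slc4a1, and -0.046, -0.030 and -0.092 for Epb41 to Dmtn. For Add3 to Add1 it was 0.16 in the correction alone and 0.13 with the longest transcript, and for Add2 to Add1 it was -0.36 with the longest transcript. The cause of these changes was not tested.

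Whether the replicate numbers pair the samples could not be decided with 3 libraries per group. Deviations from the group means correlated at 0.070, 0.055 and -0.035 across genes between CTRL and CHD4-APR libraries of numbers 1, 2 and 3. The values for numbers 1 and 2 were weak, but they were the highest of any CTRL and CHD4-APR pair. With a replicate block 5214 genes passed, and 1 member was higher and 2 were lower. CTRL replicate 3 correlated best with CHD4-APR replicate 2.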
